A study of Mus musculus with 55 samples.

Results

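The libraries described here came from the endothelial cell (EC) sort of mouse liver, and the comparison was between liver after partial hepatectomy (PH, the surgical removal of part of the liver) and normal liver. They were chosen by their labels alone: 5 of the 55 libraries of the series, 3 from PH liver and 2 from normal liver, with 1 transcript kept per gene symbol. Both groups came from C57B/L6 mice, and no allele, transgene or drug is named for either. Cells were collected by FACS into TRIzol, and RNA was sequenced from libraries made by a standard Illumina method. The labels give no time after surgery, no age, no sorting marker and no batch. They do not say whether libraries of a group came from separate animals, so p-values measure only the spread between these libraries, which may be technical. A separate sort labelled as liver sinusoidal endothelial cells (LSEC) gave 3 normal and 5 PH libraries of the same strain and treatments and served as the nearest comparison. The study names the cell network of the regenerating liver as its subject.

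Endothelial cells line the vessels of the liver, from the portal and hepatic veins and the arteries to the sinusoids, whose fenestrated endothelium carries scavenger receptors. After hepatectomy the remaining liver receives more blood per gram of tissue, and endothelial cells are known as a source of signals to hepatocytes, such as WNT and BMP ligands and HGF, which vary between vessel types. They also respond to interferon and present antigen, and they turn over the matrix and the fibrinolytic system at the vessel wall.

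The FPKM values of an EC library summed to between 657270 and 713186, and the pairwise correlation of log2(FPKM + 1) across the 12064 genes tested ran from 0.905 to 0.958. Depth cannot be read from FPKM. PH library 3 stood apart: it listed 15379 transcripts at 0, against 10939 to 12048 in the other 4, and 1180 transcripts between 0 and 0.5 FPKM, against 4174 to 5325. The label was checked against its markers. Pecam1, the endothelial adhesion molecule CD31, stood at 799.7 and 737 FPKM in normal EC and 618, 698 and 588 FPKM in PH EC, and Cdh5, VE-cadherin, at 708 and 574 FPKM in normal EC and 484, 639 and 504 FPKM in PH EC, with changes of -0.28 ± 0.20 (SE) and -0.24 ± 0.23 (SE) on the log2(FPKM + 1) scale (limma adjusted p = 0.675 and 0.75). Pecam1 was lower in all PH libraries without passing the test, and Cdh5 overlapped. Lymphocyte, neutrophil and platelet marker lists summed to at most 42.8 FPKM per library. The 14 hepatocyte markers summed to 61.6 and 0.151 FPKM in normal EC and to 3.99, 37.6 and 0.552 FPKM in PH EC, and 8 of them were listed at 0 in all 5 libraries. Zeros of genes abundant in hepatocytes can be failed estimates, so they do not show absence.

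3 genes rose after PH and 0 fell among 12064 tested, in a limma fit of the EC libraries (0.0249% called, Benjamini-Hochberg adjusted p under 0.05). At an unadjusted p under 0.05 there were 1297 genes (10.8%), of which 797 were higher (6.61%) and 500 lower (4.14%). All 3 adjusted calls stood close to the threshold. The genes were Tubb3, a beta-tubulin best known from neurons, Ch25h, the enzyme that makes 25-hydroxycholesterol, and Trf, the iron carrier transferrin.

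Tubb3 (NM_023279, chromosome 8, 125935463 to 125945910 in mm9) stood at 0.462 and 0.221 FPKM in normal EC and 11.9, 9.62 and 9.88 FPKM in PH EC. All 3 PH libraries were far above both normal ones and close to each other. The PH mean was 10.5 ± 1.28 FPKM (SD, n = 3) against 0.341 ± 0.17 (SD, n = 2), which gave a change of +3.10 ± 0.27 (SE) on the log2(FPKM + 1) scale at a limma adjusted p of 0.0495. Tubb3 was near 0 in normal EC, so the scale understates its fold. In the LSEC sort the same gene was at 0.401 ± 0.643 FPKM (SD, n = 3) in normal LSEC and 28.7 ± 13.7 FPKM (SD, n = 5) in PH LSEC, with no overlap of its libraries. Among the other PH sorts its mean was highest in Thy1 cells, at 35.8 FPKM, and it was 13.7 FPKM in blood cells, 4.94 in the duct sort labelled NPD (non progenitor ducts) and at most 0.851 in the hepatocyte, stellate, Kupffer and biliary sorts.

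Ch25h (NM_009890, chromosome 19, 34548273 to 34549625 in mm9) stood at 5.05 and 4.17 FPKM in normal EC and 24.1, 22.2 and 22 FPKM in PH EC. The PH libraries differed from each other by little and none overlapped the normal range. The PH mean was 22.8 ± 1.16 FPKM (SD, n = 3) against 4.61 ± 0.623 (SD, n = 2), and the difference on the same scale was +2.09 ± 0.19 (SE) with an adjusted p of 0.0495 from limma. Levels in the other endothelial sort were 3.57 ± 2.3 FPKM (SD, n = 3) in normal LSEC and 24.7 ± 12.3 FPKM (SD, n = 5) in PH LSEC, without overlap, although the PH LSEC libraries reached down to 6.39 FPKM. The transcripts of Tubb3 and Ch25h each overlapped 0 other symbols in the deposited coordinates. With a pooled spread from all 20 groups the adjusted p became 1.25e-07 for Tubb3 and 0.0994 for Ch25h. Leaving out any 1 of the 5 libraries took both genes over the threshold, with adjusted p from 0.0711 to 0.5 for Tubb3 and from 0.0774 to 0.502 for Ch25h, while the change stayed between +2.97 and +3.23 and between +1.97 and +2.20.

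The promoters of both genes are shown because both genes passed the test. Each line gives the 250 bases before the RefSeq start site in GRCm38.p6, 5′ to 3′ on the gene's strand: Tubb3 at chr8:123411303-123411552 (plus strand) and Ch25h at chr19:34475149-34475398 (minus strand). Capitals mark a cyclic AMP response element (TGACGTCA) or the letters TATAA, searched on both strands. These motifs were chosen after the sequences were read.
Tubb3: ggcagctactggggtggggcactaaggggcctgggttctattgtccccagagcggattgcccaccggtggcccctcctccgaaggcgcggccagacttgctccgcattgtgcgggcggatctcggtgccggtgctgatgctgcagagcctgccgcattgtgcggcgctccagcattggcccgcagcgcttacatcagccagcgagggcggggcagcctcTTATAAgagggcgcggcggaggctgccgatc
Ch25h: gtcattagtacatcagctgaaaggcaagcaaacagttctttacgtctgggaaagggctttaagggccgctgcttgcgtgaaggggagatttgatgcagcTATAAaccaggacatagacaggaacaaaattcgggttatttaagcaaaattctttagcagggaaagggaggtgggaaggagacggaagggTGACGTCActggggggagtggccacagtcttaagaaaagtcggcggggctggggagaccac
In Tubb3 the letters TATAA ended 25 bases before the start site and overlapped a match on the opposite strand, and TGACGTCA had no match. In Ch25h the full TGACGTCA ended 53 bases before the start site, with a TATAA further upstream. Among 32851 promoter windows of 300 bases, 1.79% held TGACGTCA and 24.9% held TATAA. A match is a description of the letters only.

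**Figure D1:**
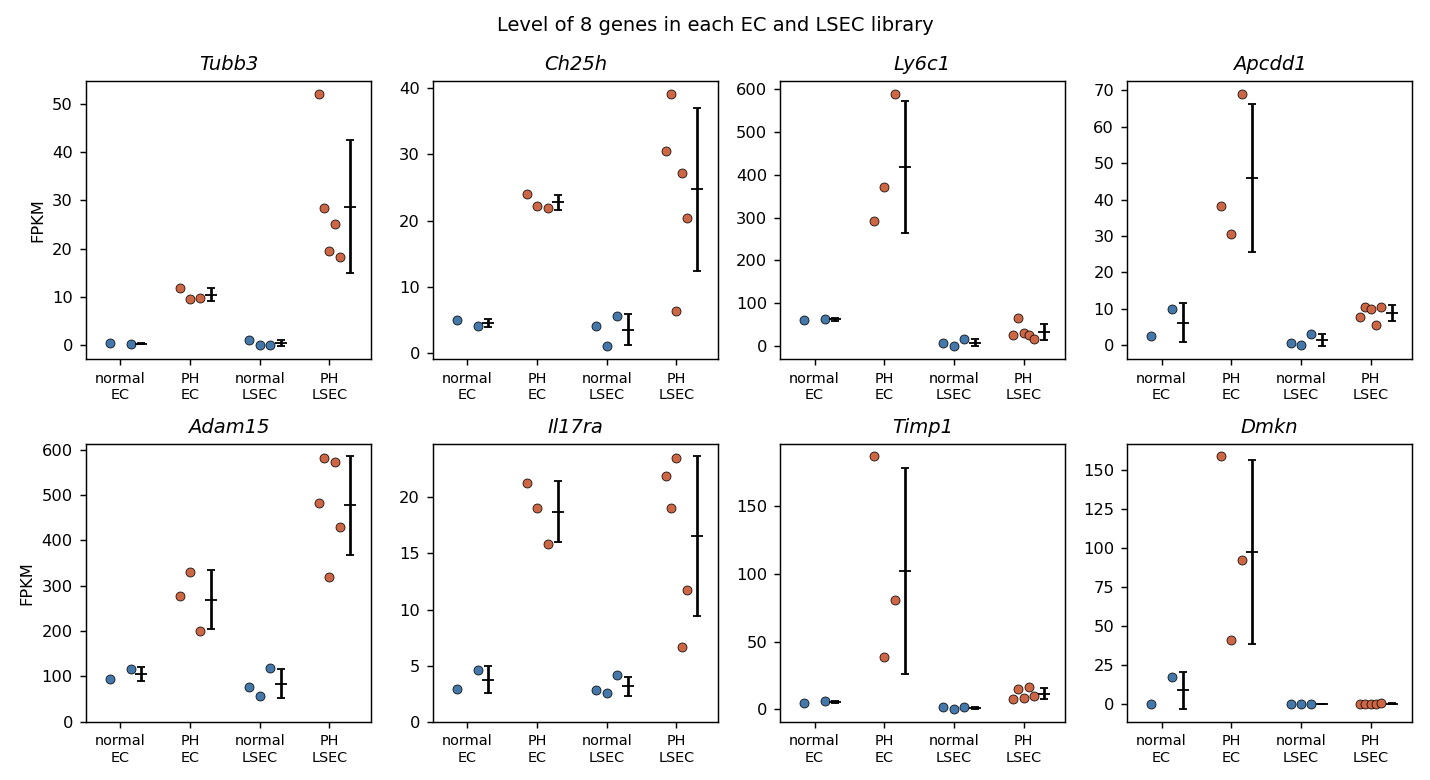
FPKM (linear axes from 0) of 8 genes in each normal and PH library of the EC and LSEC sorts, with mean and SD beside the points. Tubb3 and Ch25h separate PH from normal libraries in both sorts, while Dmkn is above 40 FPKM in PH EC only among these 4 groups.

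Trf (NM_133977, chromosome 9, 103111205 to 103132616 in mm9) was listed at 0 in both normal EC libraries and stood at 31.3, 85.3 and 33.8 FPKM in PH EC. No fold is given against a group listed at 0 (limma adjusted p = 0.0495). The gene was also listed at 0 in the 3 normal LSEC libraries, and it stood at 4.84 to 19.2 FPKM in PH LSEC. Transferrin is a hepatocyte product, with 12561 FPKM in normal and 11203 FPKM in PH hepatocytes. Zeros in the EC libraries were more frequent for such genes: among genes of at least 10 FPKM in at least 5 groups other than EC and hepatocytes, 4.77% of EC values were 0 for those of 300 FPKM or more in hepatocytes, against 0.446% for those under 10 FPKM. Absence and a failed estimate cannot be told apart for the listed zeros of Trf.

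Fitting all 20 groups of the series together, which takes the spread from every sort, called 219 genes for the EC contrast (1.82%), 157 higher (1.3%) and 62 lower (0.514%). Its p-values measure that pooled spread and not the spread of the EC libraries. The SE of the change was 0.772 in the EC fit and 0.515 in the 20-group fit for Anxa8, and 0.199 and 0.761 for Pecam1. Prnd and Tcp11l1 were among genes called higher in the 20-group fit although their EC libraries overlapped. Of the 7704 genes under 10 FPKM in both hepatocyte groups, 124 were higher (1.61%) and 50 lower (0.649%) in that fit. Of those 124, 73 (58.9%) had their highest PH mean in NPD, against 12.6% of all 7704, and 16 (12.9%) had it in EC, against 11% of all. Without PH EC library 3 the fit called 198 genes, 148 higher and 50 lower.

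The 10 largest increases called in that fit, among genes low in hepatocytes, were as follows. Anxa8, an annexin, was at 74.5, 10.1 and 41 against 0.351 and 1.16 FPKM in PH against normal EC, and Dmkn, dermokine, at 159, 41.2 and 91.9 against 0.251 and 17.1 FPKM. The keratin gene Krt7 was at 144, 30.8 and 45.8 against 1.96 and 8.4 FPKM and the uroplakin gene Upk1b at 119, 32.5 and 47.4 against 0.893 and 16.4 FPKM. PH library 1 was highest and PH library 2 lowest for each of them, and normal library 2 was above normal library 1. The other 6 of the 10 largest were Timp1, the protease inhibitor, Ptgis, prostacyclin synthase, Has1, a hyaluronan synthase, Serpinb2, PAI-2, Pdpn, podoplanin, and S100a6, at changes from +3.30 to +3.76. All 10 were highest after PH in NPD, where Krt7 had 641 and 547 FPKM in normal NPD and 826 and 1078 FPKM in PH NPD and Dmkn 301 and 77 FPKM in normal NPD and 719.9 and 839 FPKM in PH NPD.

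A wider list of 17 mesothelial genes, written after the values had been seen, summed to 74.7 and 286 FPKM in normal EC and to 1585, 383 and 671 FPKM in PH EC. Mesothelin (Msln) was at 254, 49.2 and 78.5 against 3.39 and 34.1 FPKM in PH against normal EC, and the mesothelial factor gene Wt1 at 16.7, 4.91 and 3.7 against 0.191 and 4 FPKM, where PH library 3 was below normal library 2. None of the 17 was at 0 in all 5 libraries. All 17 were tested, 12 were higher in PH without overlap of libraries and 0 lower, with a median change of +3.02 in EC and -0.17 in LSEC. The share of all genes wholly above was 16.6%. In the 20-group fit 13 of the 17 were called higher, against 1.3% of all genes. Since the list was written from these values, its counts are a description only. Leaving out normal library 1, the lower of the normal pair, gave a median of +1.74. In sorted bulk RNA, more cells of a type and more RNA per cell cannot be told apart. The part of mesothelial RNA in the other results was not tested. A portal fibroblast and mesothelial list summed to 235 and 641 FPKM in normal EC and to 1028, 708 and 489 FPKM in PH EC, with 2 of 9 tested genes higher without overlap (22.2%, against 16.6% of all genes). Biliary markers, which share their keratins with mesothelium, summed to 46.3 and 57.4 FPKM in normal EC and to 322, 170.1 and 316 FPKM in PH EC, with 4 of 5 tested genes higher (80%).

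Stellate markers summed to 182 and 446 FPKM in normal EC and to 484, 449.9 and 747 FPKM in PH EC, and Kupffer cell markers summed to 50.4 and 23.2 FPKM in normal EC and to 24.8, 303 and 170.0 FPKM in PH EC, high in PH libraries 2 and 3. Of 13 stellate markers tested, 4 were higher (30.8%) and 1 lower without overlap, and of 12 Kupffer markers 2 were higher (16.7%), near the 16.6% of all genes. By the mean alone, 11 of the 13 stellate markers and all 12 Kupffer markers were higher in PH EC, against 6325 of all 12064 genes. The median change was +0.96 for stellate markers and +1.19 for Kupffer markers, the latter +0.40 without PH library 2. In LSEC the medians were +0.19 and -1.22. Clec4f, the lectin that defines Kupffer cells, was at 3.72 and 2.85 FPKM in normal EC and 0.62, 31.8 and 15.8 FPKM in PH EC, and the macrophage receptor gene Marco at 0.23 and 0.421 FPKM in normal EC and 0.816, 41.5 and 38.5 FPKM in PH EC. Clec4f overlapped between groups, and Marco did not, although PH library 1 held 0.816 FPKM of it.

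**Figure D2:**
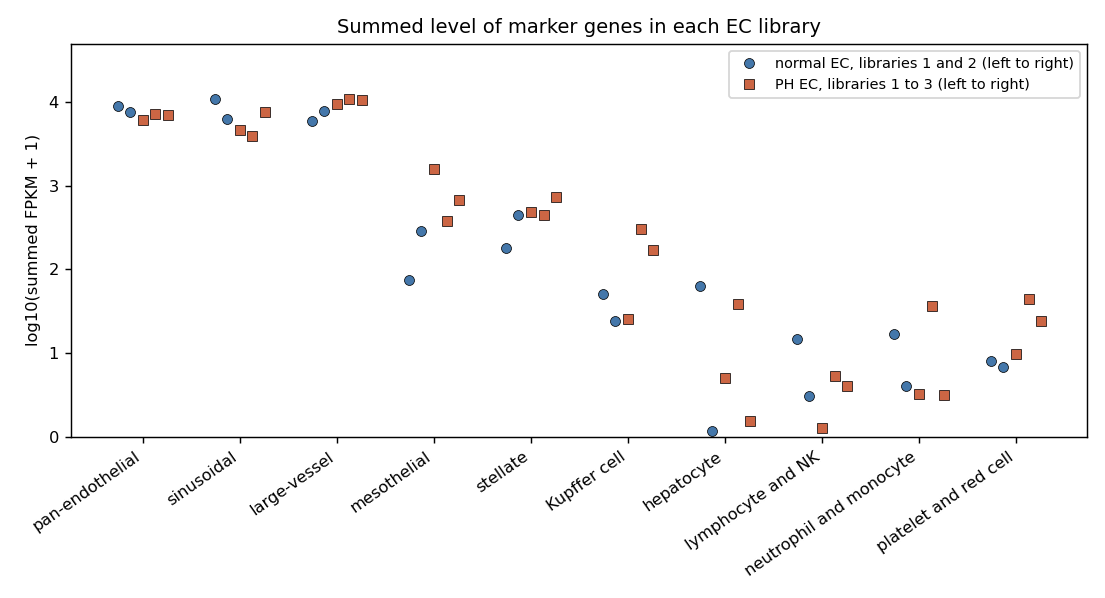
Summed FPKM of each marker list in each EC library, as log10(sum + 1), normal libraries as circles and PH libraries as squares. Endothelial lists stay near 4 on the axis in all 5 libraries, the mesothelial list is lowest in normal library 1 and highest in PH library 1, and the Kupffer list is high in PH libraries 2 and 3.

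Among genes low in hepatocytes, those called higher in the 20-group fit and highest after PH in an endothelial sort numbered 21. Of these, 16 peaked in EC (12.9% of the 124 called higher, against 11% of all 7704) and 5 in LSEC (4.03%, against 9.71%). The 21 were picked out after their values were seen. Ly6c1, a surface protein of endothelial cells whose close paralog Ly6c2 could share its reads, was at 60.5 and 64.2 FPKM in normal EC and 292, 372 and 589 FPKM in PH EC, a change of +2.66 ± 0.31 (SE) (adjusted p = 0.0353 in the 20-group fit and 0.113 in the EC fit, both by limma). Its PH mean was 122 FPKM in Thy1 cells and at most 1.03 FPKM in NPD and Kupffer cells. PH library 3 was its highest, and without that library the 20-group adjusted p was 0.125. Apcdd1, an inhibitor of WNT signalling, was at 2.43 and 10.0 FPKM in normal EC and 38.3, 30.6 and 69.1 FPKM in PH EC, again with no overlap.

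Adam15, a membrane metalloprotease of the vessel wall, was at 93.8 and 116 FPKM in normal EC and 278, 329.7 and 199.8 FPKM in PH EC, and reached 478 FPKM in PH LSEC from 84. The related Adam19 was at 10.6, 7.12 and 8.27 against 5.01 and 2.08 FPKM in PH against normal EC. Dhh, the ligand desert hedgehog, was at 18.8, 22.1 and 16 against 3.91 and 8.28 FPKM and Nkx2-3, a homeobox factor, at 5.91, 10.3 and 4.82 against 0.391 and 3.08 FPKM. Nkx2-3 was at most 0.0301 FPKM in every LSEC library. Armcx4 stood at 158, 185 and 116 against 24.1 and 51.8 FPKM and Sprr2b, a small proline-rich protein, at 42.6, 4.99 and 15.2 against 1.56 and 0.0903 FPKM, the latter with its highest mean in PH LSEC at 93.4 FPKM. In all of these named genes the PH and normal EC libraries did not overlap.

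Among genes low in hepatocytes, with predicted genes left out, 264 were higher by at least 1 on the log2 scale without overlap of libraries, and 109 were lower. Across all tested genes the PH libraries lay wholly above the normal ones for 16.6% and wholly below for 12.9%. Of the 12 such increases with the smallest p, 8 were called in the 20-group fit, which holds the same EC libraries and is no separate result. Their PH mean was highest in NPD for 5, against 12.6% of all 7704 genes low in hepatocytes. LSEC had the same sign for 10 of the 12, and for 5025 of those 7704. Il17ra, a receptor chain for IL-17, was at 21.3, 19.1 and 15.8 against 2.9 and 4.62 FPKM in PH against normal EC (adjusted p = 0.116 in the EC fit and 7.26e-04 in the 20-group fit, both by limma), and Anxa2, annexin A2, a co-receptor for plasminogen activation, at 677, 650.2 and 676 against 246 and 244 FPKM. Both were also higher in LSEC, by +1.98 and +1.73. Lect1, chondromodulin, a secreted inhibitor of vessel growth, was at 54.3, 40.9 and 66.6 against 16.7 and 12.1 FPKM, and its PH mean was highest in EC. Cryab, a small heat shock protein, was at 39.6, 22.6 and 40.8 against 7.11 and 7.04 FPKM and Tpm2, a tropomyosin, at 5.93, 7.12 and 8.1 against 0.639 and 1.26 FPKM. Lgals3, galectin-3, was at 23.8, 14.3 and 14.5 against 2.69 and 4.26 FPKM, with 939 FPKM in PH Kupffer cells.

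The 12 lower genes chosen by the same rule were lower in LSEC as well, 12 of 12, where 5025 of all 7704 genes low in hepatocytes shared a sign. Of the 418 without overlap in EC and with a change of at least 1 in either direction, predicted genes included, 299 shared it. In the 20-group fit, which holds the same EC libraries, 6 of the 12 were called. Slc43a2, an amino acid transporter, was at 108 and 116 FPKM in normal EC and 22.3, 24.3 and 41.7 FPKM in PH EC (adjusted p = 0.147 in the EC fit and 0.0203 in the 20-group fit, both by limma). Its PH libraries lay at or below 41.7 FPKM and both normal ones above 107 FPKM. Ackr1, an atypical chemokine receptor of venular endothelium, was at 27.4, 25.7 and 30.9 against 83.6 and 55.7 FPKM in PH against normal EC. Tnfsf10, the death ligand TRAIL, was at 29.5, 32 and 22.6 against 63.2 and 62.4 FPKM and Btnl9, a butyrophilin-like protein, at 32.3, 41.2 and 34.3 against 98.7 and 72.5 FPKM. Sox4, a transcription factor, was at 7.72, 11.9 and 5.84 against 23 and 29.1 FPKM and Apobec1, a cytidine deaminase, at 8.06, 10.0 and 7.15 against 19.8 and 23.2 FPKM. Rasgef1b, Art4 and Zscan2 differed by -1.40, -1.76 and -1.41 without passing in the EC fit, and the other 3 were the interferon-inducible genes Ifi208, Ifit3b and Ifi44.

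The largest decreases called in the 20-group fit were led by Cxcl9, an interferon-induced chemokine, at 43.5 and 9.35 FPKM in normal EC and 2.35, 0.94 and 1.99 FPKM in PH EC, a change of -3.00 (limma adjusted p = 7.26e-04 in that fit). Normal library 1 was well above normal library 2, and all PH libraries were below both. Plxdc1, a receptor known from tumour vessels, was at 0.462, 0.339 and 2.06 against 13.7 and 4.08 FPKM in PH against normal EC, and Art3, an ADP-ribosyltransferase family member, at 7.93, 9.92 and 23.5 against 79.6 and 39.8 FPKM. Ackr4, a scavenger of homeostatic chemokines, was at 2.38, 0.689 and 0.417 against 11.3 and 4.52 FPKM and Cysltr2, a leukotriene receptor, at 0.713, 0.996 and 0 against 6.64 and 3.65 FPKM. Cdkn1c, the cell cycle inhibitor p57, was at 6.62, 5.52 and 17.7 against 41.7 and 26.3 FPKM, and H2-Q6, an MHC class I gene with close paralogs between which reads may be split, at 19.8, 36.8 and 16.2 against 125 and 54.1 FPKM. LSEC showed the same sign for all 10 of the largest decreases and for 7 of the 10 largest increases. Of all 7704 genes low in hepatocytes, 5025 shared a sign.

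Interferon-induced and antigen presentation genes stood lower in PH EC as a list, though no single one passed adjustment. Of 22 listed genes 21 were tested, 14 were lower without overlap of libraries (66.7%, against 12.9% of all genes), 0 were higher, and the median change was -1.14, against +0.02 over all 12064 genes. In limma 0 of them passed adjustment in the EC fit or in the 20-group fit, and 13 were lower at an unadjusted p under 0.05 in the EC fit. Without PH library 3, 16 were lower without overlap and 0 higher, against 21.9% and 26.1% of all genes. The list median was -0.91 in LSEC.

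Among the effectors, Ifit3, whose near copy Ifit3b could share its reads, was at 51.2 and 44.3 FPKM in normal EC and 14.5, 8.57 and 21.2 FPKM in PH EC and Ifit2 at 38.6 and 31 FPKM in normal EC and 13.8, 9.93 and 18.7 FPKM in PH EC. Rsad2, viperin, was at 9.62, 7.82 and 16.1 against 30.3 and 26.2 FPKM in PH against normal EC, and Isg15, a ubiquitin-like modifier, at 56, 37.4 and 28.1 against 92.8 and 96.9 FPKM. In each of these 4 genes both normal libraries lay above all 3 PH libraries. The transcription factor Irf7, which carries the interferon signal to these genes, was at 33, 34.3 and 27.2 against 60.3 and 73.1 FPKM, whereas Irf1, at 120.4, 80.7 and 87.2 against 172 and 110.3 FPKM, overlapped between groups. The interferon-gamma-induced GTPases Igtp, Iigp1, Gbp3 and Gbp5 had changes of -1.14, -1.15, -1.15 and -1.0, again without overlap, while Gbp2 and Gbp4 overlapped at -0.41 and -0.23.

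Among MHC class II genes, H2-Aa was lower without overlap, at 27.3 and 9.21 FPKM in normal EC and 1.47, 9.12 and 3.57 FPKM in PH EC, although PH library 2 came close to normal library 2. Cd74, the invariant chain, was at 59.7 and 23.3 FPKM in normal EC and 4.68, 26.7 and 23.2 FPKM in PH EC, and H2-Ab1 at 20.1 and 6.4 FPKM in normal EC and 1.6, 8.93 and 7.01 FPKM in PH EC. Both overlapped between groups, as did H2-Eb1, which was listed at 0 in PH library 3. H2-Aa, Cd74 and H2-Ab1 were lowest in PH library 1, which also had the lowest Kupffer marker sum of the PH libraries, and class II genes are also expressed by Kupffer cells (Cd74 had 720.5 FPKM in PH Kupffer cells). The part of Kupffer cell RNA in these values was not tested. For Ifit3, Rsad2, Igtp and Isg15 the PH Kupffer means were 15.7, 11.7, 18.5 and 29.6 FPKM.

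**Figure D3:**
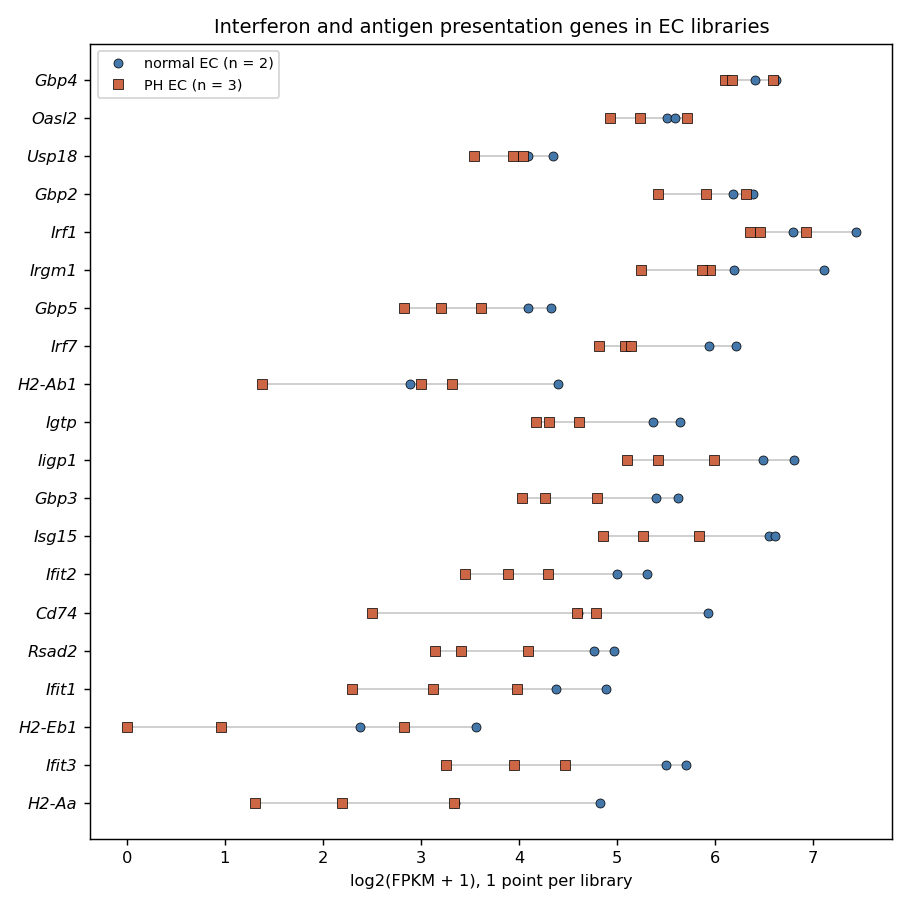
Level of 20 of the 21 tested interferon and antigen presentation genes in each EC library, as log2(FPKM + 1), ordered by the change with the most negative at the bottom. PH squares lie left of both normal circles for 13 genes and overlap them for the class II genes H2-Ab1, H2-Eb1 and Cd74 among others.

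Promoter letters of the interferon genes are shown because 14 genes of the list shared a direction. RefSeq promoter windows were at hand for 15 of the 22 genes, and 9 of them (60%) held the core of an interferon-stimulated response element, GAAA, any 2 bases and GAAA on either strand, against 3.44% of 32851 windows of the same length. The list names interferon-induced genes, so that share describes the choice of genes and not these libraries. Of these 9 genes 8 were lower without overlap in PH EC, and of the 6 without a match 3 were. Whether a match goes with the change was not tested. The lines give 250 bases before the start site in GRCm38.p6, 5′ to 3′ on the gene's strand, with matches in capitals, for Ifit3 (chr19:34583279-34583528, plus), Isg15 (chr4:156200819-156201068, minus), Rsad2 (chr12:26456453-26456702, minus) and Igtp (chr11:58199306-58199555, plus).
Ifit3: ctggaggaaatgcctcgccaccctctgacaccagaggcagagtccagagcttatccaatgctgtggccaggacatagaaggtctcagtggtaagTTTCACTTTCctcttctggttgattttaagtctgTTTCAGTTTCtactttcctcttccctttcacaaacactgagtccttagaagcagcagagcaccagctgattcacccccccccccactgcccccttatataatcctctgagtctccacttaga
Isg15: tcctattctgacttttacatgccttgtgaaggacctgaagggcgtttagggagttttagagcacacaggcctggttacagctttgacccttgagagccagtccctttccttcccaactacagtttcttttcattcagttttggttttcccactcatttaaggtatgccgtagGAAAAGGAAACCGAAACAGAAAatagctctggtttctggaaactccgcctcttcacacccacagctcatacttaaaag
Rsad2: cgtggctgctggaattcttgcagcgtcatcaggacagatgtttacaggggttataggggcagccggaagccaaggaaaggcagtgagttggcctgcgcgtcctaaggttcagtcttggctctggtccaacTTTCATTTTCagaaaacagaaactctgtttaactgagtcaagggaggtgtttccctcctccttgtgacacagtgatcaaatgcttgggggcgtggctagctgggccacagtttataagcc
Igtp: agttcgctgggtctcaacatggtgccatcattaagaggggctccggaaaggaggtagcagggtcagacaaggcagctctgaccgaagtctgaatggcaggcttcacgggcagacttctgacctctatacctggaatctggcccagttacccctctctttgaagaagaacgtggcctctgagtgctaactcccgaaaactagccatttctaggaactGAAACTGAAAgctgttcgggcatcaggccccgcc
Ifit3 held 2 matches, both on the opposite strand, Isg15 held 3 that overlap one another, and Rsad2 and Igtp held 1 each. The match in Igtp ended 24 bases before the start site, and the nearest in Isg15 ended 56 bases before it. No factor's binding was measured in these libraries.

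Tubulin genes stood higher as a list, with Tubb3 the only one to pass in the EC fit. Of 23 listed tubulin and microtubule genes 15 were tested, 12 were higher without overlap (80%, against 16.6% of all genes), 0 were lower, and the median change was +0.81 in EC and +0.74 in LSEC. Besides Tubb3, the list held 2 genes called in the 20-group fit. Tuba4a, an alpha-tubulin, was at 4.57 and 3.73 FPKM in normal EC and 15, 13.3 and 17.8 FPKM in PH EC (limma adjusted p = 0.0149 in that fit), and Stmn2, a microtubule-destabilizing protein of growing neurites, at 2.08 and 2.18 FPKM in normal EC and 9.79, 8.98 and 10.6 FPKM in PH EC (limma adjusted p = 0.0034). In both genes all PH libraries were far above both normal ones. For Stmn2 the change was larger in EC than in LSEC, by 2.42, and the highest PH mean was in NPD.

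The abundant Tubb5 was at 429, 494 and 488 against 272 and 261 FPKM in PH against normal EC and Tubb4b at 98.4, 109.8 and 115 against 85.4 and 60.2 FPKM, smaller relative differences on a much higher level. Tubb2a was at 53.4, 68.9 and 38.2 against 12.8 and 27.1 FPKM and Tubb6 at 20.5, 28.3 and 7.48 against 4.84 and 6.03 FPKM, lowest of the PH libraries in library 3. Tuba1a, Tuba1b and Tuba1c, near-identical copies among which reads may be split, differed by +1.03, +0.80 and +1.39. The median of the list was +0.97 without PH library 3 and +0.46 to +1.07 over the alternatives that moved it by more than the spread between libraries.

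**Figure D4:**
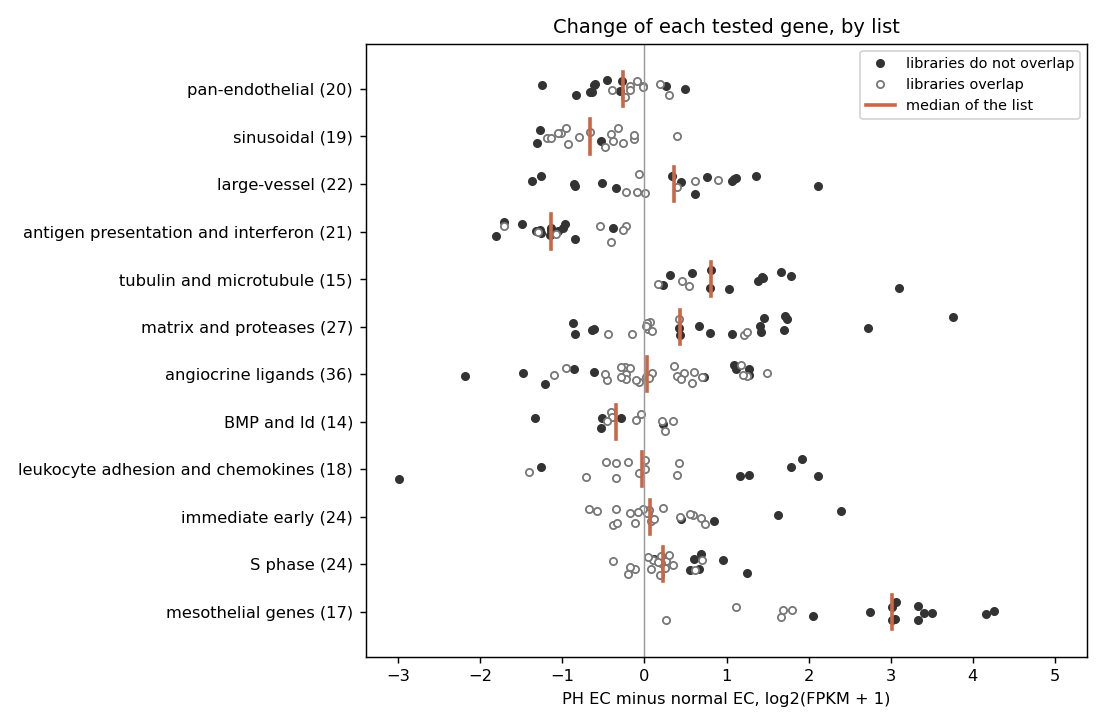
Change of each tested gene (PH EC minus normal EC, log2(FPKM + 1)) in 12 gene lists, with the number tested in parentheses, filled points for genes whose libraries do not overlap and a bar at the list median. The interferon list lies left of 0, the tubulin list right of it and the mesothelial list furthest right, with a median near 3.

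General endothelial genes leaned lower. Of 20 listed, 16 had the lower mean after PH, 9 were lower (45%, against 12.9% of all genes) and 2 higher (10%, against 16.6%) without overlap, with a median change of -0.26. The tight junction gene Cldn5 was at 414 and 507 FPKM in normal EC and 151, 236 and 201 FPKM in PH EC, and Kdr, the main VEGF receptor, at 611 and 312 FPKM in normal EC and 224, 229.6 and 282 FPKM in PH EC. The endothelial surface genes Mmrn2 and Robo4 differed by -0.64 and -0.66, and the factor genes Erg and Sox18 by -0.60 and -0.61. On the other side stood Tek, the angiopoietin receptor TIE2, at 441, 423 and 502 against 379.7 and 379 FPKM in PH against normal EC, and Ecscr at 270.4, 326 and 274 against 231 and 183 FPKM. In limma 0 of the list were called in the EC or the 20-group fit, and 4 were lower and 1 higher at an unadjusted p under 0.05 in the EC fit.

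Sinusoidal genes had a median change of -0.67 in EC and -1.25 in LSEC, but the libraries spread widely. The list summed to 11051 and 6365 FPKM in normal EC and to 4647, 3993 and 7752 FPKM in PH EC. Of 19 tested, 3 were lower without overlap (15.8%, near the 12.9% of all genes), and 13 were when PH library 3 was left out, against 21.9% of all genes then. Clec4g, an abundant sinusoidal lectin, was at 2855 and 1155 FPKM in normal EC and 789, 653 and 1684 FPKM in PH EC, and Fcgr2b, a scavenging Fc receptor, at 1457 and 659 FPKM in normal EC and 407, 306 and 835 FPKM in PH EC. In both, normal library 1 was highest and PH library 3 lay above normal library 2. The 3 without overlap were Flt4, the VEGFC receptor, at 87.6, 111 and 89.2 against 299.5 and 179 FPKM in PH against normal EC, the scavenger receptor gene Stab1 at 215, 296 and 208 against 364 and 319 FPKM, and Cd209b, a lectin, at 1.37, 1.13 and 1.84 against 7.92 and 3.08 FPKM (limma adjusted p = 0.0103 in the 20-group fit).

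Large-vessel genes split. Of 22, 9 were higher (40.9%, against 16.6% of all genes) and 6 lower (27.3%, against 12.9%) without overlap, and the median change was +0.37. Thbd, thrombomodulin, was at 179 and 297 FPKM in normal EC and 761, 632 and 439 FPKM in PH EC, and Edn1, the vasoconstrictor endothelin-1, at 132 and 176 FPKM in normal EC and 449, 307 and 248 FPKM in PH EC. Sele, E-selectin, an adhesion molecule of activated endothelium, was at 6.36 and 8.29 FPKM in normal EC and 71.7, 29.3 and 19.9 FPKM in PH EC. PH library 1 was highest for all 3. Ly6a, the surface protein Sca-1, reached 4859, 5325 and 6850 against 2350 and 3045 FPKM in PH against normal EC, and the arterial genes Sox17 and Gja4 differed by +0.62 and +0.45. In the other direction, Ltbp4, a TGF-beta binding protein, was at 911 and 909 FPKM in normal EC and 307, 488 and 291 FPKM in PH EC, and Dll4, a Notch ligand of arterial and tip cells, at 137 and 176 FPKM in normal EC and 62.9, 133 and 74.1 FPKM in PH EC. The list median was +0.04 without normal library 1, in which Vwf, von Willebrand factor, was at 289 FPKM against 997 in normal library 2.

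Angiocrine ligands had no common direction: of 36 tested of 39, 5 were higher and 5 lower without overlap, near the background shares, with a median change of +0.03. Bmp4 was at 21.9 and 27.2 FPKM in normal EC and 8.83, 4.67 and 2.11 FPKM in PH EC and Bmp6, which induces hepcidin in hepatocytes, at 63.3 and 42.9 FPKM in normal EC and 18.5, 24.6 and 22.9 FPKM in PH EC. Angpt2, the TIE2 ligand released by activated endothelium, was at 15 and 8.5 FPKM in normal EC and 2.78, 4.11 and 3.4 FPKM in PH EC. All 3 were lower without overlap, at changes of -2.19, -1.22 and -1.49 (limma adjusted p = 0.206, 0.203 and 0.203). Pdgfa, the cytokine Il6 and Cxcl12 were higher, at 6.59, 8.97 and 7.92 against 2.13 and 3.24 FPKM, 4.07, 2.33 and 5.41 against 1.63 and 0.482 FPKM and 8.01, 10.9 and 19.1 against 5.37 and 4.62 FPKM in PH against normal EC.

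The pericentral ligands Wnt2, Wnt9b and Rspo3, which set hepatocyte zonation, overlapped between the groups, and of the 10 genes in their list 1, Thbd, was higher without overlap. Wnt2 was at 41.4 and 18.6 FPKM in normal EC and 48.4, 11.4 and 23.1 FPKM in PH EC, Wnt9b at 34.5 and 20.5 FPKM in normal EC and 81.6, 10.0 and 19.2 FPKM in PH EC and Rspo3 at 123 and 46.7 FPKM in normal EC and 118, 11.5 and 29.7 FPKM in PH EC. PH library 1 and normal library 1 were the high ones for Rspo3, and PH library 2 was the lowest for all 3. Their means in PH LSEC were 509, 499 and 903 FPKM, against 197, 39.4 and 136 in normal LSEC. Hgf, the hepatocyte growth factor, was at 46.3 and 23.2 FPKM in normal EC and 24.6, 24 and 22.1 FPKM in PH EC and also overlapped. Among BMP pathway genes, 5 of 14 tested were lower without overlap (35.7%, against 12.9% of all genes) and 1 higher (7.14%, against 16.6%): the target genes Id3 and Smad6 differed by -0.40 and -0.52, and Id1 was at -0.04 with overlap. In the Notch list 4 of 14 were lower (28.6%) and 1 higher, with a median of +0.04.

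Of 27 matrix and protease genes tested, 13 were higher without overlap (48.1%, against 16.6% of all genes) and 4 lower (14.8%, near the 12.9% of all genes), with a median change of +0.43. Timp1 was at 4.82 and 5.76 FPKM in normal EC and 187, 38.8 and 80.5 FPKM in PH EC (limma adjusted p = 3.88e-05 in the 20-group fit), with a mean of 1196 FPKM in PH NPD, and it was higher in LSEC too, by +2.64. Mgp, matrix Gla protein, was at 31.1 and 91.3 FPKM in normal EC and 185, 163 and 194 FPKM in PH EC and Lox, lysyl oxidase, at 4.46 and 11.1 FPKM in normal EC and 29.9, 26.2 and 21.2 FPKM in PH EC. The aggrecanase-family proteases Adamts1, Adamts4 and Adamts9 differed by +1.70, +1.42 and +1.40. The abundant Sparc was at 1192, 1345 and 1202 against 720.1 and 708 FPKM in PH against normal EC, and the basement membrane collagen genes Col4a1 and Col4a2 differed by +0.43 and +0.42. Timp3, another protease inhibitor, was lower at 359, 462 and 363 against 645 and 775 FPKM, as were the laminin gene Lama4 (-0.61) and the perlecan gene Hspg2 (-0.64). Mesothelial and stellate sums, given above, also differed between these libraries, and their part in the matrix values was not tested.

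Of the vasoactive and flow-responsive genes 21 were tested, 7 were higher (33.3%, against 16.6% of all genes) and 2 lower (9.52%, against 12.9%) without overlap, and the median was +0.46. Besides Thbd, Edn1 and Ptgis, the higher ones included Ednrb, an endothelin receptor, at 839.7, 1125 and 879 against 597 and 777 FPKM in PH against normal EC, and Hmox1, heme oxygenase, at 60.5, 59.8 and 57 against 43.3 and 36.7 FPKM. The flow-induced factor gene Klf2 and the nitric oxide synthase gene Nos3 overlapped, at +0.20 and +0.28. Of 27 sprouting genes, 5 were higher and 4 lower without overlap (18.5% and 14.8%), near the shares of all genes. Among them Plvap, a diaphragm protein of fenestrae, was at 695, 1045 and 704 against 551 and 499 FPKM, Igfbp3, an IGF carrier, at 14.1, 58.4 and 31.3 against 3.17 and 5.87 FPKM, and Flt1, the VEGF decoy receptor, at 187, 198 and 142 against 222 and 206 FPKM. Esm1 and Apln, markers of tip cells, overlapped.

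Among adhesion molecules and chemokines, 5 of 18 tested were higher (27.8%, against 16.6% of all genes) and 2 lower (11.1%, against 12.9%) without overlap, with a median of -0.03. The monocyte attractants Ccl2 and Ccl7 were at 13.8, 3.73 and 22.3 against 2.79 and 2.07 FPKM and 6.53, 1.03 and 7.11 against 0.15 and 0.502 FPKM in PH against normal EC, lowest of the PH libraries in library 2. Cx3cl1, fractalkine, was at 1.17, 1.57 and 2.57 against 0.341 and 0.0902 FPKM (limma adjusted p = 0.0234 in the 20-group fit). Icam1 and Vcam1, the main leukocyte adhesion ligands, overlapped, with changes of +0.40 and -0.21.

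Most immediate early genes overlapped between groups. Fos was at 1088 and 526 FPKM in normal EC and 1322, 326 and 699.7 FPKM in PH EC, and Egr1 at 688 and 202 FPKM in normal EC and 646, 142 and 276 FPKM in PH EC. For both genes library 1 of each group was the highest, and 20 of the 24 genes overlapped between groups (16.7% were higher, near the 16.6% of all genes). Myc was an exception, at 2.89 and 0.848 FPKM in normal EC and 17.7, 9.4 and 13.2 FPKM in PH EC, a change of +2.39 ± 0.40 (SE) (adjusted p = 0.0026 in the 20-group fit and 0.181 in the EC fit, both by limma). Maff and Klf6 were also higher without overlap, by +1.62 and +0.84.

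Sterol genes other than Ch25h gave few differences. Cyp7b1, which hydroxylates the Ch25h product, was at 3.06 and 1.13 FPKM in normal EC and 9.95, 5.41 and 4.64 FPKM in PH EC, higher without overlap. The synthesis gene Sqle, squalene epoxidase, was at 2.35 and 1.26 FPKM in normal EC and 3.12, 3.13 and 1.87 FPKM in PH EC and overlapped between groups. In the list 2 of 21 tested were higher and 3 lower (9.52% and 14.3%). Iron genes gave 7 of 16 higher (43.8%, against 16.6% of all genes) and 2 lower (12.5%). Only 4 of these 16 genes were under 10 FPKM in both hepatocyte groups, and the 7 include Trf, with its listed zeros. Tfrc, the transferrin receptor, was at 2.8, 2.49 and 1.56 against 0.835 and 0.464 FPKM in PH against normal EC, and the ferritin gene Fth1 at 855, 421 and 815 against 494 and 325 FPKM with overlap. The acute phase gene Serpina3n was at 2.76 and 1.06 FPKM in normal EC and 85.7, 8.52 and 106 FPKM in PH EC (limma adjusted p = 8.22e-04 in the 20-group fit), and 10 of the 22 acute phase genes were listed at 0 in all EC libraries. Of the 6 acute phase genes tested, Serpina3n among them, 0 were under 10 FPKM in both hepatocyte groups. The part of hepatocyte RNA or of failed estimates in these values was not tested.

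Cell cycle genes were low. Of 30 mitosis genes only 8 reached the expression filter, and the list summed to between 25.5 and 29.8 FPKM in every EC library. Of 24 S phase genes tested, 7 were higher (29.2%, against 16.6% of all genes) and 0 lower (against 12.9%) without overlap, with a median change of +0.23. Mcm6, a replicative helicase subunit, was at 27, 22.9 and 35.8 against 18.4 and 15.9 FPKM and Uhrf1 at 2.84, 3.18 and 2.83 against 0.531 and 0.802 FPKM in PH against normal EC. Pcna, the polymerase clamp, overlapped at 40.2, 33.3 and 48.5 against 41.2 and 27.5 FPKM.

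The responses of the EC and LSEC sorts were related but not equal. Across the 7704 genes low in hepatocytes the 2 changes had a Pearson correlation of 0.403, and 5025 genes had the same sign in both. These are genes and not replicates, no library is shared, and whether the sorts came from the same livers is not given. The difference of responses, tested in the 20-group fit, was called for 63 of 12824 genes (0.491%), 46 with the larger value in EC (0.359%) and 17 with the larger value in LSEC (0.133%). The difference was not called for Tubb3 at -1.30 ± 0.43 (SE) or for Ch25h at -0.36 ± 0.84 (SE) (limma adjusted p = 0.258 and 1).

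Among the genes with the strongest difference toward EC were Anxa8, Il18r1, a receptor chain for IL-18, Serpinb2 and Wnt4. Il18r1 was at 0.241 and 0.763 FPKM in normal EC and 29.7, 4.87 and 13.9 FPKM in PH EC, and at most 0.110 FPKM in every LSEC library, a difference of +3.29 ± 0.52 (SE) (limma adjusted p = 5.47e-04). Wnt4 was at 0.391 and 0.552 FPKM in normal EC and 4.61, 3.76 and 6.03 FPKM in PH EC. These 4 were highest after PH in NPD, at 346, 149, 195 and 54.4 FPKM in the order named, beside the mesothelial values given above.

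Toward LSEC stood genes with higher levels after PH in that sort. Stc2, the secreted stanniocalcin-2, was at 1.82 and 1.01 FPKM in normal EC and 2.57, 1.46 and 0.352 FPKM in PH EC, and at 0.323 ± 0.402 FPKM (SD, n = 3) in normal LSEC and 21.5 ± 10.6 FPKM (SD, n = 5) in PH LSEC, a difference of -4.04 ± 0.49 (SE) (limma adjusted p = 4.14e-06). Bcam, a laminin receptor, was at 134 and 194 FPKM in normal EC and 287, 263 and 156 FPKM in PH EC, and at 68.2 ± 39.1 FPKM (SD, n = 3) in normal LSEC and 799 ± 269 FPKM (SD, n = 5) in PH LSEC, a difference of -3.14 ± 0.58 (SE) (limma adjusted p = 0.00362). Glp1r, the GLP-1 receptor, differed by -3.73 ± 0.62 (SE), Ajap1, a junction-associated protein, by -2.87 ± 0.48 (SE) and Cyp2ab1, a cytochrome P450, by -1.80 ± 0.30 (SE). In EC the PH and normal libraries of Stc2, Bcam, Glp1r and Ajap1 overlapped, and Cyp2ab1 was at 0.543, 0.277 and 0.121 against 1.15 and 1.49 FPKM in PH against normal EC. With the spread taken from the 4 endothelial groups alone, the difference of responses was called for 1 gene, and with normal LSEC library 3 left out for 139.

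**Figure D5:**
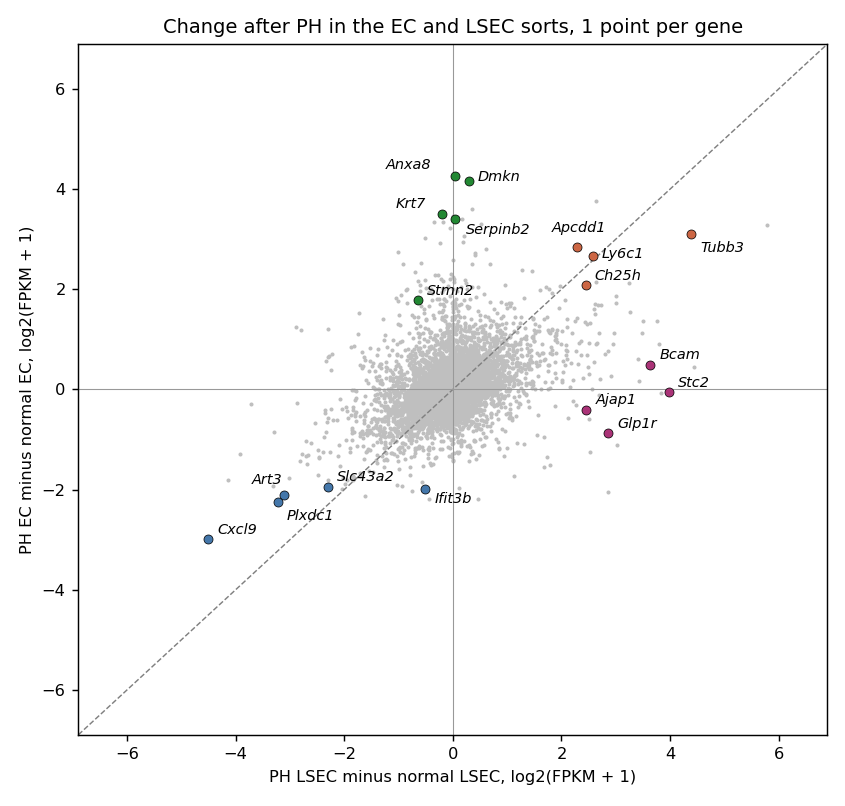
Change after PH in EC (vertical) against LSEC (horizontal), both as differences of log2(FPKM + 1), for the 7704 genes under 10 FPKM in hepatocytes, with the dashed line at equal change. Tubb3, Ch25h and Ly6c1 are high in both sorts, Anxa8, Dmkn and Krt7 are high in EC and near 0 in LSEC, and Stc2 and Bcam are high in LSEC and near 0 in EC.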

How the data were processed

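RNA of 10 sorted cell populations was sequenced, and the authors deposited 1 table of FPKM values for 55 libraries and 36141 transcripts. The unit is taken from the name of the deposited table. Per the submitters' processing notes, CASAVA 1.8.2, Bowtie 1.0.0 and mm9 were used. The counting tool and strand setting are not given in the sources used here. Each of 24478 symbols was represented by its most abundant transcript, judged by the mean of all 55 libraries. Values were tested as log2(FPKM + 1), a scale that understates changes of low genes, with limma 3.58.1 in R 4.3.3 (trended, robust variance, Benjamini-Hochberg threshold 0.05) among genes of at least 1 FPKM in at least 2 EC libraries. The difference of EC and LSEC responses came from a fit of all 20 groups. The code was tested on simulated data. Tables and figures were made in Python 3.11.15 with matplotlib 3.10.9.

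Members and lists were chosen with earlier results of these data known. Named were all adjusted calls. Added to them, among genes under 10 FPKM in hepatocytes, were the 12 non-overlapping increases and 12 decreases of at least 1 (log2) with the smallest p, and the 10 largest calls in each direction of the 20-group fit. Also named were the 4 most abundant members of each list and the 5 strongest response differences in each direction. Predicted genes were left out, and a few genes taken by these rules are not reported here. Other named list members, the mesothelial list, the genes highest in endothelium and the promoter motifs were chosen after values or sequences were seen. Promoters are from RefSeq (GRCm38.p6). Alternatives changed the pseudocount, filter, scaling, transcript choice, variance model, libraries fitted and replicate block. A PH library of another sort carries a treatment tag of normal and was kept as titled. It enters the spread of the 20-group fit, its own sort's PH mean and the choice of transcript, and no EC or LSEC value.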

Additional observations from a re-analysis of the deposited data

Results flagged for a closer look

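The responses to PH differed between the EC and LSEC sorts for 63 genes at a limma adjusted p under 0.05, by the test of the difference itself. Among the genes named here, the difference of log2(FPKM + 1) changes (EC minus LSEC) was positive for these members of the mesothelial list: 4.23 for Anxa8, 3.87 for Dmkn, 3.71 for Krt7, 3.68 for Pdpn, 3.52 for Upk1b and 3.23 for Has1. It was also positive for Serpinb2 at 3.35, the receptor gene Il18r1 at 3.29, Ptgis at 3.25, Stmn2 at 2.42 and Wnt4 at 1.89. For each of these 11 genes the highest PH mean was in NPD, and the summed mesothelial genes of the EC libraries are given in the report; their part in the differences was not tested.

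Negative differences, with the larger change in LSEC, were -4.04 for Stc2, -3.73 for Glp1r, -3.14 for Bcam, -2.87 for Ajap1 and -1.80 for Cyp2ab1.

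Of 12 genes examined for a single library far from the others of its group, 3 had one among the 5 PH LSEC libraries by Dixon's test, where chance gives about 1 in 20 groups. These libraries had 4.54 FPKM of Cyp2ab1, 0.0802 FPKM of Il18r1 and 0.291 FPKM of Serpinb2. The last 2 are levels near 0. The EC groups, of 2 and 3 libraries, were not examined by that test.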

How the results depend on the processing

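The 3 adjusted calls of the EC fit were 0 without the low-value filter (1426 genes at an unadjusted p under 0.05), 0 with quantile normalization (1347), 0 with upper-quartile scaling (1294) and 0 without the variance trend (1234), all by limma. They were 44 in a fit of the 4 endothelial groups and 219 in the fit of all 20 groups. After the data had been seen, 2 further fits of all 20 groups were added, which gave 202 calls among genes low in hepatocytes and 198 without PH EC library 3. Leaving out 1 EC library gave 0 to 8 calls: 0 without normal library 1 (608 unadjusted), normal library 2 (986) or PH library 3 (1719), 1 without PH library 1 and 8 without PH library 2. The 63 differences of responses were 27 with a pseudocount of 0.1 and 1 in the fit of the 4 endothelial groups, and 25 to 139 with 1 library left out (25 without normal EC library 1, 33 without normal LSEC library 1, 97 without normal EC library 2, 95 without PH EC library 2, 41 and 40 without PH LSEC libraries 1 and 4, and 139 without normal LSEC library 3). Quantile normalization gave 62 of them, 34 toward EC and 28 toward LSEC, against 46 and 17. Over 140 named genes 0 changes reversed sign. Most of the 140 had no overlap of PH and normal libraries, and for those leaving out 1 library cannot reverse the sign. Overlapping genes such as Wnt2 and Fos were not among the 140. Of the alternatives for the 140 genes, 2206 kept their side of the threshold, 123 passed it (44 genes) and 33 lost it (3 genes). With a replicate block there were 0 calls in EC (2031 at an unadjusted p under 0.05, limma) and 10 differences of responses. The numbers of normal and PH libraries share only 1 and 2, and the labels name no pairs, so the numbers were not taken as pairs. The deviations of same-numbered libraries correlated at -0.12 and 0.03. With 2 normal libraries, the deviations of 1 mirror those of the other, so these correlations cannot decide whether the numbers are pairs. Normal EC has 2 libraries, so leaving 1 out assumes that the lone library varies like the PH ones. FPKM gives no depth, so no counting error is known.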
